A study of Oryctolagus cuniculus with 4 samples.

Results

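The chemokines and the TNF superfamily were followed in hypertrophic scar (HS) tissue of the rabbit ear. They were taken by symbol: genes named CCL, CCR, CXCL or CXCR with a number, CX3C and XCR genes, ACKR genes with a number, and genes whose name starts with TNF. This gave 53 of the 13913 genes in the table. In all, 11 were CC chemokine ligands, 7 were CXC or CX3C ligands, 12 were chemokine receptors and 3 were atypical receptors. A further 6 were TNF superfamily ligands, 8 were TNF receptors and 6 were TNFAIP genes. TNFAIP genes are named for induction by TNF, except that TNFAIP8L2 and TNFAIP8L3 are named for their likeness to TNFAIP8. Levels are given in ppm, where 1 ppm is 1 part of a library total of 1000000. Of the 53, 42 had a mean of at least 1 ppm and were tested.

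The study compared untreated scars (HS group, 2 libraries) with scars given drug-loaded microneedles once a week for 3 weeks (drug-loaded MNs group, 2 libraries). Drug-loaded MNs are patches whose tips separate into the skin and carry a prodrug of 5-fluorouracil acetic acid. All 4 libraries were 10x Genomics single-cell libraries from wild-type female rabbits with surgically wounded ears, made from the ventral epidermis and dermis of 1 scar tissue each, harvested a week after the last treatment in the drug-loaded MNs group. No library of drug-free MNs was analysed here, so the drug and the needle cannot be told apart. The study describes the 2 samples of a group as biologically independent, and the labels do not say whether they came from different rabbits. P-values measure the spread between these libraries only. The values are 1 number per gene and library, so fewer cells of a type and less RNA per cell cannot be told apart. Sequencing depth was unknown, and members near 1 ppm carry a counting error that could not be measured.

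Markers of the labelled tissue were present. Fibroblast genes summed to 23063 and 22586 ppm in HS and to 44785 and 48706 ppm in drug-loaded MNs, and suprabasal keratinocyte genes ran from 43320 to 80671 ppm over the libraries. Of the cartilage markers ACAN, COL2A1 and COMP were not analysed here, MATN1 reached at most 2.51 ppm and SOX9, which skin appendages also express, ran from 65.8 to 113 ppm. Mitochondrial transcripts took 2.75% and 2.80% of the HS libraries and 4.37% and 4.58% of the drug-loaded MNs libraries, and their part in the results was not tested. HS replicate 1 stood apart in neutrophil genes, at 226 ppm against 17.7 to 53.1 ppm.

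Chemokines are small secreted proteins that guide leukocytes by binding G protein-coupled receptors. Their families are named after the spacing of their first cysteines. Atypical receptors bind chemokines without G protein signalling and so take up, transport or scavenge them. TNF superfamily ligands act as trimers on receptors that lead through TRAF and death domain adaptors to NF-kB or to caspases. In skin these genes are known from keratinocytes, fibroblasts, vessel and lymphatic endothelium, macrophages and T cells.

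Of drug-loaded MNs against HS, the first question is how many members differed, and 0 of the 42 tested members passed an adjusted p of 0.05 in limma (a linear model for each gene with a shared estimate of variance), against 0.0428% of the 9348 genes tested. At an unadjusted p under 0.05 there were 8 members, or 19.0%, against 8.65% of all genes. Of these, 6 were higher in drug-loaded MNs (CCL21, TNFSF13B, TNFAIP8L2, CCR7, CCL17 and CX3CR1), where 7.26% of all genes were. The other 2, ACKR1 and CXCL11, were lower, where 1.39% of all genes were. Over all genes only 4 passed the adjusted threshold. Leaving out HS replicate 1 gave 0, drug-loaded MNs replicate 1 gave 48 and drug-loaded MNs replicate 2 gave 75. In the last of these fits 1 member passed, CCL21 (limma adjusted p 0.00676).

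Between the groups, 30 of the 42 tested members had a higher and 12 a lower mean log2 value in drug-loaded MNs, and 64.6% of all genes were higher. Both drug-loaded MNs libraries lay above both HS libraries in 19 members (45.2%), against 26.6% of all genes. Both lay below in 8 members (19.0%), against 11.2% of all genes. The median log2 fold change was 0.41 for the tested members and 0.12 for all tested genes, and single changes are to be read against the latter. With median ratio scaling the former was 0.28 and the latter -0.001, with 26 members higher and 16 lower. This scaling also moved the share of higher genes among all those at an unadjusted p under 0.05 from 83.9% to 66.0%, and quantile normalization moved it to 58.9%. Among the members this split was 6 to 2 under median ratio scaling and 4 to 2 under quantile normalization. The members passed the filter on their mean over all libraries, which a gene high in a single group can pass, so these counts are descriptions. With 1 library left out, the log2 fold change of 32 of the 42 members moved by over 1.5 times or turned in sign in at least 1 of the 4 fits. The 10 others were CCL21, CCL14, CCR7, CX3CR1, ACKR1, TNFSF13B, TNFSF12-TNFSF13, TNFRSF21, TNFAIP8L2 and TNFAIP6.

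**Figure D1:**
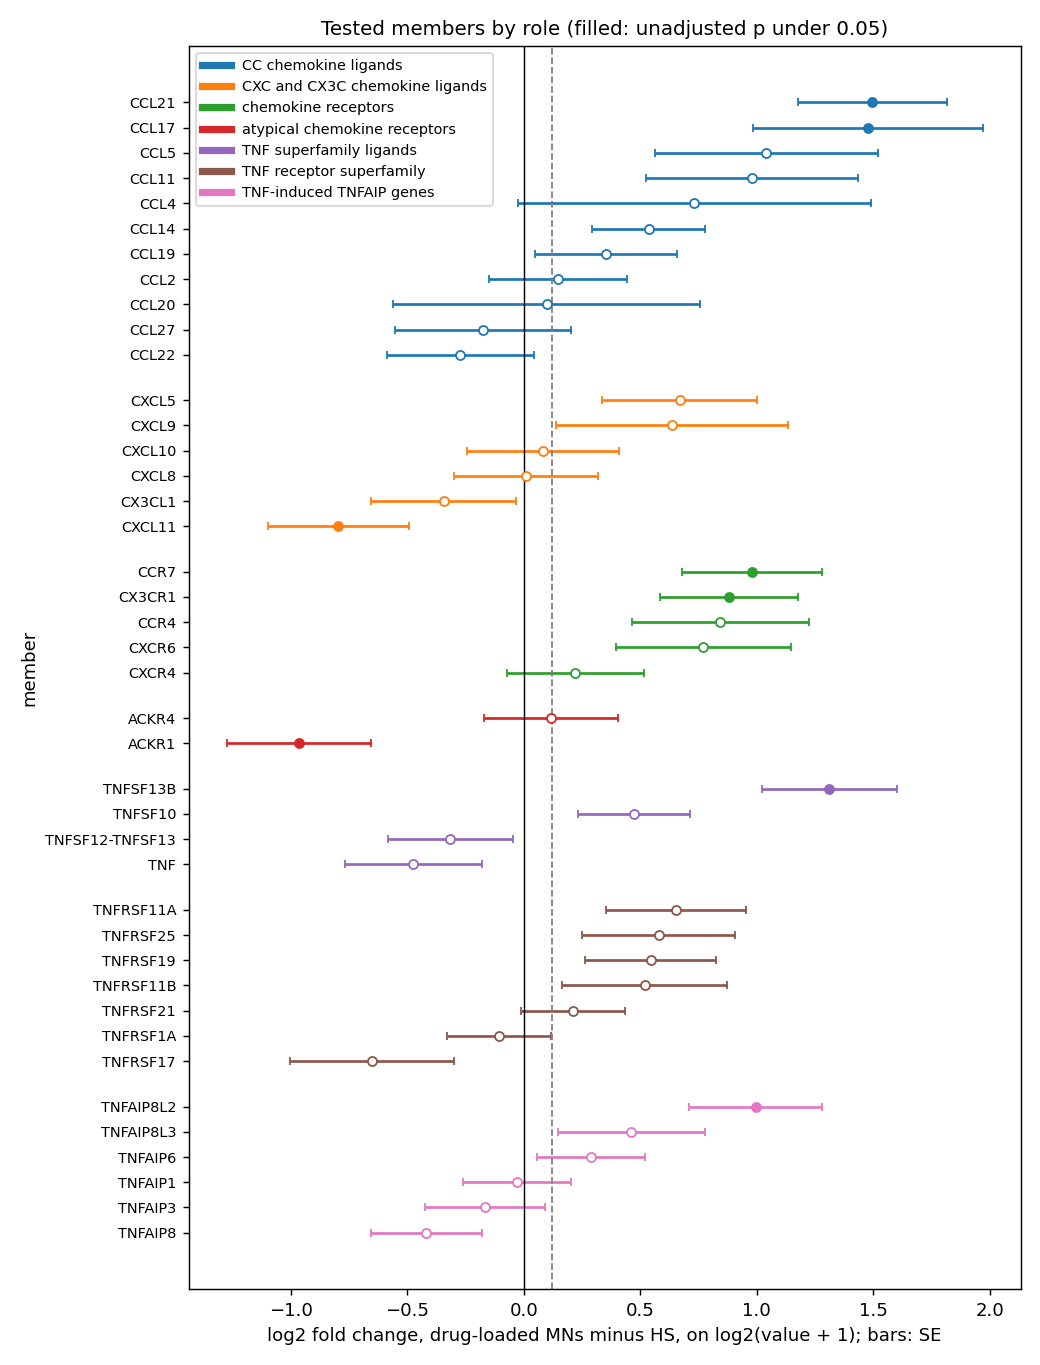
Log2 fold change (drug-loaded MNs minus HS, on log2(value + 1), x axis) of 41 of the 42 tested members (y axis, by role), with bars for the standard error; the dashed line is the median of all tested genes, 0.12. CCL21 and CCL17 lie farthest to the right at 1.496 and 1.48, ACKR1 and CXCL11 farthest to the left at -0.97 and -0.80, and no member passed an adjusted p of 0.05.

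Among the CC ligands, CCL21 had the smallest p of any member. CCL21 is the chemokine of lymphatic endothelium that draws dendritic cells and T cells carrying CCR7 into lymph vessels. It stood at 63.2 and 48.3 ppm in HS and at 212 and 117 ppm in drug-loaded MNs. Both drug-loaded MNs libraries lay above both HS libraries, but the former differed from each other by more than the HS libraries did. The means were 55.8 ± 10.54 and 165 ± 67.2 ppm (SD, n = 2 each), a ratio of 2.95. The log2 fold change was 1.496 (± 0.32 SE, adjusted p 0.308 by limma, unadjusted p 0.00191).

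CCR7, the receptor of CCL21 and CCL19 on dendritic cells and T cells, was also higher. Its level was 0.804 and 0.885 ppm in HS and 2.99 and 2.32 ppm in drug-loaded MNs. The groups did not overlap, with a ratio of means of 3.14 and a log2 fold change of 0.98 (± 0.30 SE, adjusted p 0.405 by limma). CCL19, the other ligand of CCR7, stood at 10.3 and 16.2 ppm in HS and at 14.9 and 19.0 ppm in drug-loaded MNs. Its groups overlapped, and its log2 fold change was 0.35 (± 0.31 SE, adjusted p 0.835 by limma), with 0.0505 without HS replicate 1 and 0.66 without HS replicate 2. ACKR4, the atypical receptor that scavenges both ligands, stood at 18.2 and 19.0 ppm in HS and at 25.1 and 16.2 ppm in drug-loaded MNs, so its groups overlapped as well.

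Lymphatic endothelial markers had the direction of CCL21 between the groups. All 3 analysed genes of the list (LYVE1, MMRN1 and PROX1) were higher in drug-loaded MNs, where 64.6% of all genes were. FLT4 and PDPN were not analysed here. The summed level of the 3 was 8.73 and 11.8 ppm in HS and 43.0 and 31.6 ppm in drug-loaded MNs. In drug-loaded MNs the sum was higher in replicate 1, as for CCL21, but PROX1 was higher in replicate 2. In HS the sum was higher in replicate 2, unlike CCL21. None of the 3 was at 0 in any library. The part of these cells in the level of CCL21 was not tested.

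CCL17 attracts T cells that carry CCR4, among them those that home to skin. Its level was 1.996 and 6.88 ppm in HS and 9.39 and 16.6 ppm in drug-loaded MNs. The groups did not overlap, although HS replicate 2 lay closer to drug-loaded MNs replicate 1 than to HS replicate 1 on the log2(value + 1) scale. The log2 fold change was 1.48 (± 0.49 SE, adjusted p 0.428 by limma), and without HS replicate 1 it was 0.78. CCR4 itself stood at 1.30 and 0.554 ppm in HS and at 1.62 and 3.40 ppm in drug-loaded MNs, with no overlap and a log2 fold change of 0.84 (± 0.38 SE, adjusted p 0.606 by limma). This was 0.56 without HS replicate 2. It was 0.47 if drug-loaded MNs replicate 2 was omitted. CCL22, the other ligand of CCR4, stood at 1.80 and 1.82 ppm in HS and at 1.73 and 0.979 ppm in drug-loaded MNs, with a log2 fold change of -0.27 (± 0.32 SE, adjusted p 0.878 by limma). For CCL22 this was -0.51 if drug-loaded MNs replicate 1 was omitted and -0.0401 if replicate 2 was.

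Inflammatory CC ligands were spread unevenly over the libraries. CCL5, which recruits T cells and monocytes, stood at 1.97 and 2.14 ppm in HS and at 2.76 and 9.51 ppm in drug-loaded MNs. Its log2 fold change of 1.04 (± 0.48 SE, adjusted p 0.622 by limma) was 0.30 without drug-loaded MNs replicate 2. CCL4, made by activated macrophages and lymphocytes, stood at 2.63 and 22.1 ppm in HS and at 18.0 and 11.2 ppm in drug-loaded MNs. HS replicate 1 was low and the groups overlapped. The log2 fold change of CCL4 was 0.73 (± 0.76 SE, adjusted p 0.861 by limma), and without HS replicate 1 it was -0.60.

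The remaining CC ligands lay outside the naming rule, and the values given for members outside it were chosen after they had been seen. CCL20, a ligand of CCR6 that keratinocytes can make, stood at 76.3 and 137 ppm in HS and at 49.4 and 241 ppm in drug-loaded MNs, so drug-loaded MNs replicates 1 and 2 were the lowest and the highest library. CCL14 stood at 69.4 and 54.5 ppm in HS and at 81.0 and 99.2 ppm in drug-loaded MNs, with no overlap. CCL11, an attractant of eosinophils, stood at 1.22 and 3.75 ppm in HS and at 3.80 and 7.56 ppm in drug-loaded MNs. CCL2, the main attractant of monocytes, stood at 61.9 and 104 ppm in HS and at 78.9 and 100.2 ppm in drug-loaded MNs, with overlap. The keratinocyte chemokine CCL27 overlapped too, at 11.5 and 12.6 ppm in HS and at 15.7 and 7.01 ppm in drug-loaded MNs. Over all 11 CC ligands, 9 were higher and 2 lower, where 64.6% of all genes were higher. Without overlap 5 were higher and 1 lower, against 26.6% and 11.2% of all genes. The median log2 fold change of the CC ligands was 0.54. Without HS replicate 1 this median was 0.05. CCL20 turned from higher to lower under median ratio scaling, at -0.034.

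**Figure D2:**
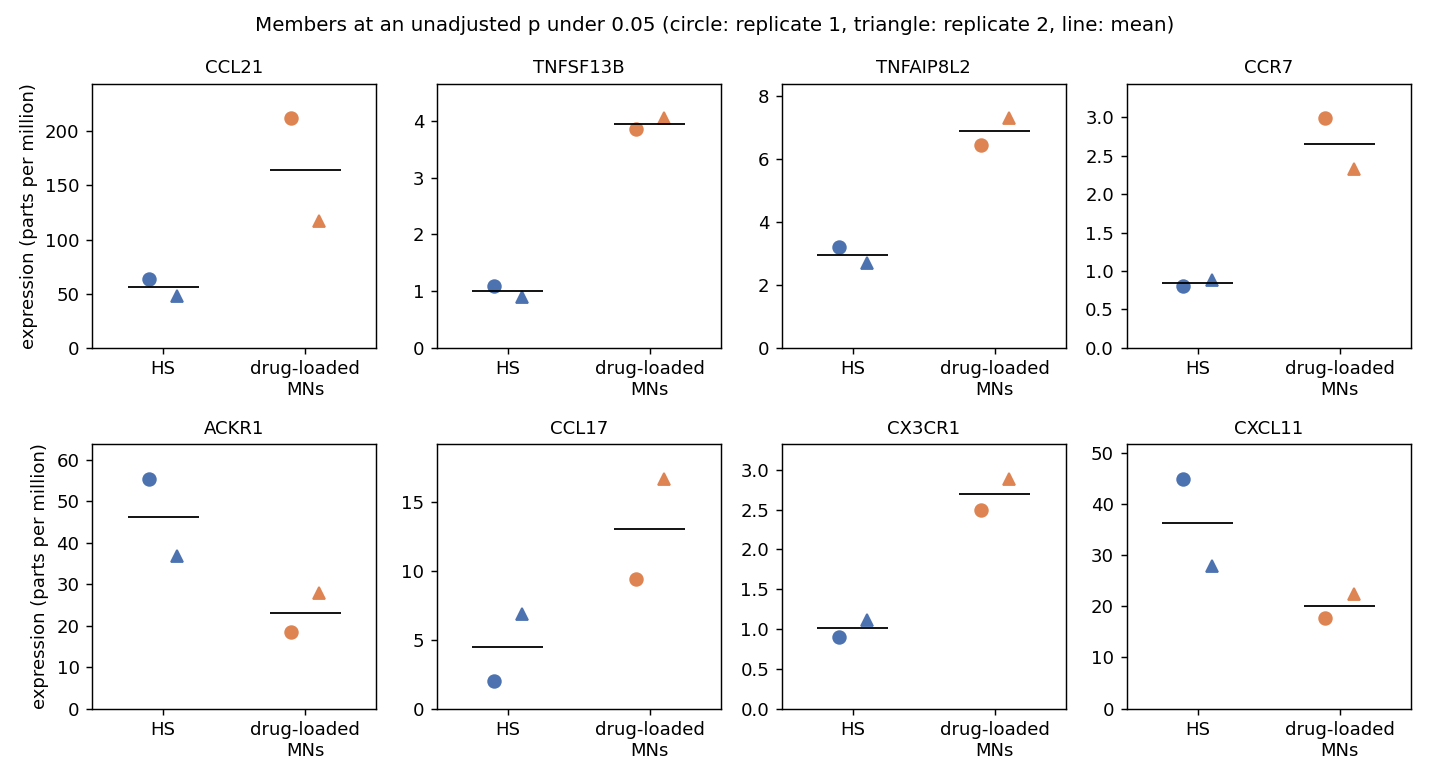
Expression (ppm of the library total, y axis from 0) of the 8 members at an unadjusted p under 0.05 in the HS and drug-loaded MNs groups (x axis); each point is a library and the line is the group mean. TNFSF13B separates the groups with little spread, at 1.08 and 0.902 against 3.85 and 4.05 ppm, while CCL21 and CCL17 differ within groups as well. TNFSF13B and CCR7 had HS means under 1 ppm and passed the filter through the drug-loaded MNs libraries.

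CXC and CX3C ligands had no common direction. CXCL11, an interferon-induced ligand of CXCR3, was lower in drug-loaded MNs. It stood at 44.9 and 27.8 ppm in HS and at 17.6 and 22.5 ppm in drug-loaded MNs. The groups did not overlap, with HS replicate 1 the highest. The log2 fold change was -0.80 (± 0.30 SE, adjusted p 0.506 by limma), with -0.46 without HS replicate 1 and -1.13 without HS replicate 2. The related ligands CXCL10 and CXCL9 did not share this. CXCL10 stood at 12.1 and 22.0 ppm in HS and at 16.9 and 17.8 ppm in drug-loaded MNs. CXCL9 stood at 0.638 and 1.97 ppm in HS and at 1.18 and 4.40 ppm in drug-loaded MNs. The groups overlapped in both, and CXCR3 was not analysed here.

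Among the attractants of neutrophils, CXCL8 stood at 129 and 70.6 ppm in HS and at 93.0 and 99.6 ppm in drug-loaded MNs. Its log2 fold change was 0.01 (± 0.31 SE, adjusted p 0.997 by limma), with -0.12 under median ratio scaling and 0.44 without HS replicate 1. CXCL5 stood at 7.70 and 4.19 ppm in HS and at 9.10 and 10.3 ppm in drug-loaded MNs, with no overlap and a log2 fold change of 0.67 (± 0.33 SE, adjusted p 0.675 by limma) that was 0.30 without HS replicate 2. The neutrophil markers S100A8 and S100A9 were highest in HS replicate 1, where CXCL8 was highest, at 153 and 71.8 ppm. In the other libraries S100A8 ran from 12.6 to 32.3 ppm. The part of neutrophils in the level of CXCL8 was not tested. CXCL13, which organizes B cells, was listed at 0 in all 4 libraries.

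CX3CL1 (fractalkine), a membrane-bound chemokine of endothelium and epithelium, stood at 2.03 and 3.02 ppm in HS and at 1.61 and 1.897 ppm in drug-loaded MNs. The groups did not overlap, and the log2 fold change was -0.34 (± 0.31 SE, adjusted p 0.838 by limma). It was -0.55 without HS replicate 1 and -0.14 without HS replicate 2. Its receptor CX3CR1, known from monocytes and macrophages, was higher. CX3CR1 stood at 0.898 and 1.12 ppm in HS and at 2.501 and 2.89 ppm in drug-loaded MNs. The ratio of means was 2.67 and the log2 fold change 0.88 (± 0.30 SE, adjusted p 0.433 by limma). The difference between ligand and receptor was not tested.

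All 6 tested chemokine receptors were higher in drug-loaded MNs, 5 of them without overlap, where 64.6% of all genes were higher and 26.6% were higher without overlap. Their median log2 fold change was 0.81, but CCR7, CCR4 and CXCR6 had HS means under 1 ppm and so passed the filter through the drug-loaded MNs libraries. Over all 12 receptors, with no filter, the median was 0.38, and over the 6 at a pseudocount of 5 it was 0.34. Beside CCR7, CCR4 and CX3CR1 these included CXCR6, a receptor of resident T cells, and CXCR4. CXCR6 stood at 1.51 and 0.369 ppm in HS and at 1.91 and 2.43 ppm in drug-loaded MNs. CXCR4, the receptor of CXCL12, overlapped between the groups at 17.5 and 11.9 ppm in HS and at 15.2 and 19.1 ppm in drug-loaded MNs. Its log2 fold change of 0.22 was -0.041 without HS replicate 2, and it was positive in every scaling alternative. The other 6 receptors of the table were not tested. CCR8 and CCR10 stood highest among them, CCR8 at 0.785 and 0.462 ppm in HS and at 1.22 and 0.908 ppm in drug-loaded MNs. CCR10, the receptor of CCL27, stood at 0.502 and 0.449 ppm in HS and at 1.07 and 0.864 ppm in drug-loaded MNs. CCR1 and XCR1 stayed at or below 0.703 ppm, and CCR3 and CCR9 were listed at 0 in both drug-loaded MNs libraries.

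**Figure D3:**
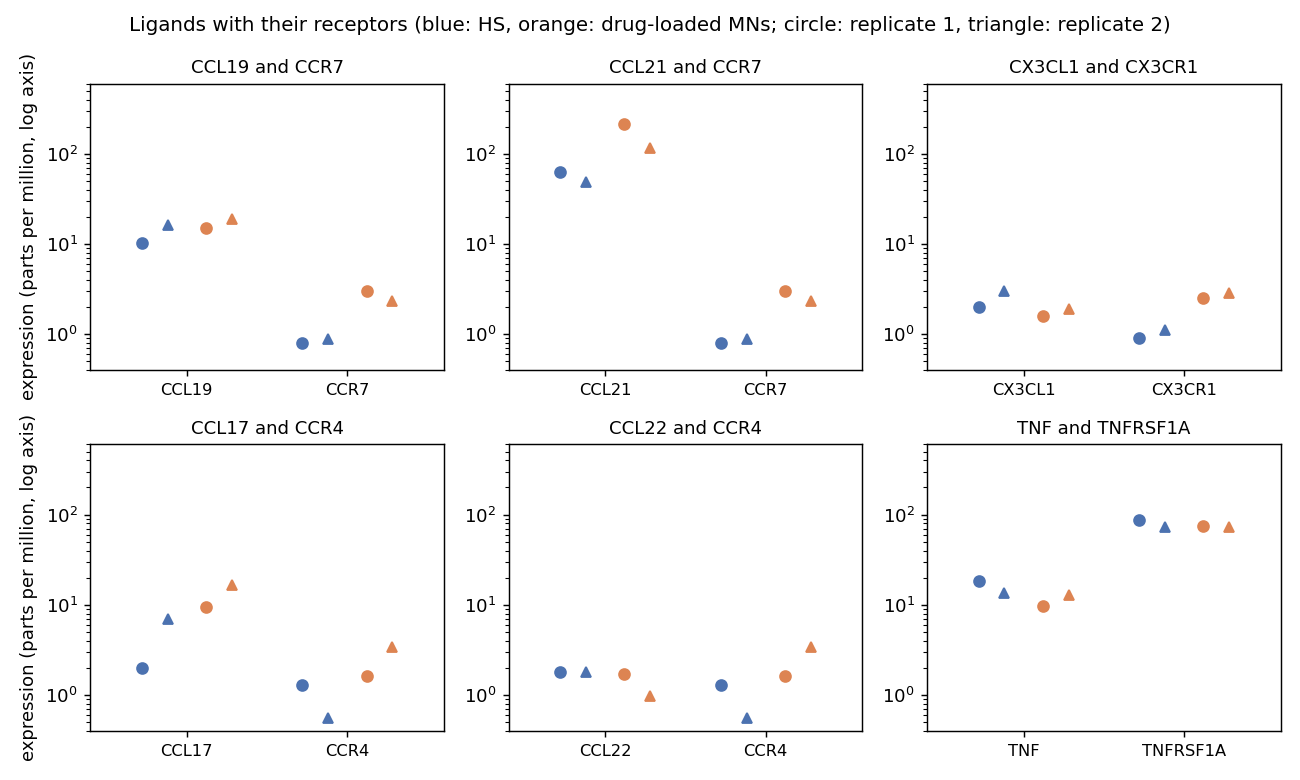
Expression (ppm of the library total, y axis on a log scale) of 6 ligand and receptor pairs in which both genes were tested, 1 point per library. Receptors CCR7, CX3CR1 and CCR4 and the ligands CCL21 and CCL17 lie higher in both drug-loaded MNs libraries than in both HS libraries. The ligands CX3CL1, CCL22 and TNF lie lower, while CCL19 and TNFRSF1A overlap.

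Some marker lists of leukocytes were higher in drug-loaded MNs, as the receptors were, and others were not. In the macrophage list, 7 of 7 tested genes were higher without overlap, where 26.6% of all genes were. Their median log2 fold change was 1.16, and the eighth, MARCO, was under the filter. A gene of this list, and CD2 below, had HS means under 1 ppm and passed the filter through the drug-loaded MNs libraries. CD68 was not analysed here. The summed level was 78.9 and 97.1 ppm in HS and 199 and 198 ppm in drug-loaded MNs. PTPRC, the leukocyte antigen CD45, stood at 19.5 and 18.5 ppm in HS and at 43.7 and 49.3 ppm in drug-loaded MNs. Of 4 analysed pan-leukocyte genes 3 were higher, where 64.6% of all genes were, CD53 being the exception. The summed level of the list was 215 and 161 ppm in HS and 216 and 246 ppm in drug-loaded MNs. For T cells 3 of 10 listed genes were analysed, among them CD2 and CD4, with CD3D, CD3E and CD3G not analysed here. CD4, which macrophages of some species also carry, stood at 2.90 and 2.001 ppm in HS and at 8.41 and 6.45 ppm in drug-loaded MNs. CD2 stood at 0.559 and 1.24 ppm in HS and at 3.73 and 2.31 ppm in drug-loaded MNs. The summed T cell and NK level was 21.3 and 19.4 ppm in HS and 24.4 and 39.6 ppm in drug-loaded MNs. Other leukocyte lists were mixed. The 1 tested gene of the dendritic and Langerhans list was lower without overlap, where 11.2% of all genes were. The 2 tested neutrophil genes were lower with overlap. Of the mast cell list 3 of 4 tested genes were higher, and of the B cell and plasma list 2 of 2, beside 64.6% of all genes. The part of cell numbers in the receptor levels was not tested.

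**Figure D4:**
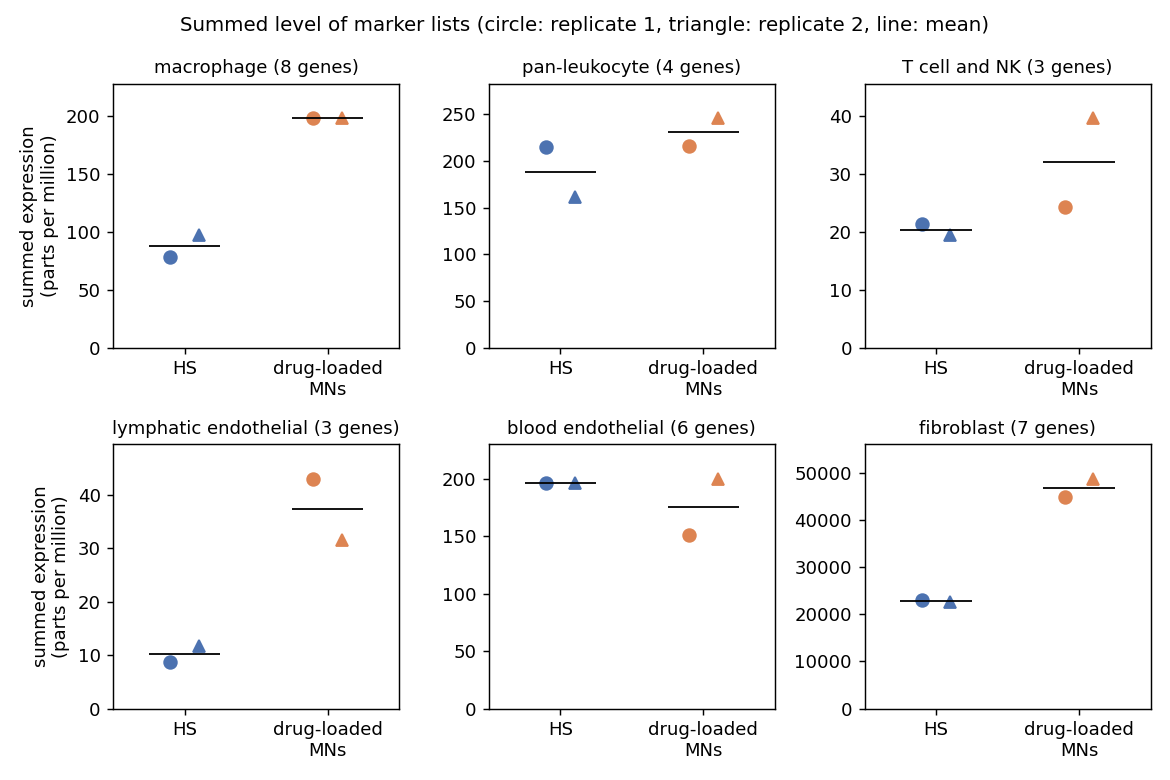
Summed expression (ppm of the library total, y axis from 0) of 6 marker lists in the HS and drug-loaded MNs groups (x axis); each point is a library and the line is the group mean. Macrophage, lymphatic and fibroblast sums lie higher in both drug-loaded MNs libraries than in both HS libraries, at 199 and 198 against 78.9 and 97.1 ppm for macrophages, while blood endothelial sums overlap.

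ACKR1, the atypical receptor of venular endothelium that carries chemokines across the vessel wall, was lower in drug-loaded MNs. It stood at 55.5 and 36.9 ppm in HS and at 18.4 and 27.9 ppm in drug-loaded MNs, with no overlap. The ratio of means was 0.501 and the log2 fold change -0.97 (± 0.31 SE, adjusted p 0.417 by limma). It was -0.68 without HS replicate 1 and -1.25 without HS replicate 2. Blood endothelial markers gave no common direction beside it, with 4 of 6 analysed genes higher and 2 lower, where 64.6% of all genes were higher. Their summed level was 196 and 196 ppm in HS and 151 and 199.8 ppm in drug-loaded MNs, and CLDN5 and EGFL7 were not analysed here. Among them VWF, which is high in venous endothelium, stood at 149 and 128 ppm in HS and at 83.1 and 114 ppm in drug-loaded MNs, without overlap. CDH5 and PECAM1 were higher in drug-loaded MNs, CDH5 at 2.76 and 4.30 ppm in HS and 6.42 and 8.58 ppm in drug-loaded MNs. The part of the makeup of the endothelium in the level of ACKR1 was not tested. ACKR2, which scavenges inflammatory CC chemokines, was under the filter and reached at most 0.504 ppm.

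Among the TNF superfamily ligands, TNFSF13B had the smallest p. TNFSF13B (BAFF) is a survival factor of B cells that myeloid cells make. It stood at 1.08 and 0.902 ppm in HS and at 3.85 and 4.05 ppm in drug-loaded MNs. The libraries of each group lay close together, and the ratio of means was 3.97. Its HS mean was 0.993 ppm, so TNFSF13B passed the filter through the drug-loaded MNs libraries. The log2 fold change was 1.31 (± 0.29 SE, adjusted p 0.314 by limma, unadjusted p 0.00238), and it lay between 1.25 and 1.38 with any 1 library left out. Macrophage markers, given above, were also higher in drug-loaded MNs. So were 7 of 7 fibroblast genes without overlap, where 26.6% of all genes were. Within HS, TNFSF13B was higher in replicate 1 and the macrophage sum was higher in replicate 2. The part of cell numbers in the level of TNFSF13B was not tested.

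TNF itself, the founding cytokine of the family, stood at 18.5 and 13.6 ppm in HS and at 9.62 and 12.9 ppm in drug-loaded MNs. Both drug-loaded MNs libraries lay below both HS libraries, but drug-loaded MNs replicate 2 was close to HS replicate 2. The log2 fold change was -0.47 (± 0.29 SE, adjusted p 0.745 by limma), with -0.26 if HS replicate 1 was omitted and -0.28 if drug-loaded MNs replicate 1 was. TNFRSF1A, its widely expressed receptor, stood at 87.9 and 72.9 ppm in HS and at 75.3 and 73.2 ppm in drug-loaded MNs, with overlap and a log2 fold change of -0.11 (± 0.22 SE, adjusted p 0.936 by limma). TNFSF10 (TRAIL), a ligand of death receptors, stood at 58.2 and 48.1 ppm in HS and at 65.4 and 83.4 ppm in drug-loaded MNs, with no overlap and a log2 fold change of 0.47 (± 0.24 SE, adjusted p 0.691 by limma) that was 0.30 without drug-loaded MNs replicate 2. TNFSF12-TNFSF13, the readthrough of the genes for TWEAK and APRIL, stood at 10.4 and 12.1 ppm in HS and at 8.38 and 9.27 ppm in drug-loaded MNs. It overlaps the single genes, which were not analysed here, so its level is uncertain. TNFSF11 (RANKL) and TNFSF18 were under the filter, with at most 0.525 ppm.

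Of the 7 tested TNF receptors, 5 were higher and 2 lower, and 4 were higher without overlap, beside 64.6% and 26.6% of all genes. TNFRSF11A (RANK), the receptor of RANKL, stood at 4.33 and 6.26 ppm in HS and at 9.75 and 7.94 ppm in drug-loaded MNs. TNFRSF11B (osteoprotegerin), the soluble decoy of the same ligand, overlapped at 29.1 and 17.7 ppm in HS and at 43.4 and 25.01 ppm in drug-loaded MNs. TNFRSF19 stood at 14.9 and 19.6 ppm in HS and at 29.7 and 21.7 ppm in drug-loaded MNs, without overlap. TNFRSF21 (death receptor 6) was the most even of them over the libraries, at 36.2 and 34.4 ppm in HS and 40.8 and 41.2 ppm in drug-loaded MNs. TNFRSF25 (death receptor 3) stood at 16.6 and 8.94 ppm in HS and at 17.8 and 19.7 ppm in drug-loaded MNs. Over the 7, log2 fold changes ran from -0.65 to 0.66, and no unadjusted p was under 0.05. The eighth, TNFRSF9 (4-1BB), a costimulatory receptor of T cells, was under the filter at 1.20 and 0.252 ppm in HS and at 0.311 and 0.888 ppm in drug-loaded MNs.

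TNFRSF17 (BCMA), a receptor of plasma cells, gave the -0.65. It stood at 14.3 and 23.8 ppm in HS and at 8.88 and 14.6 ppm in drug-loaded MNs, and the groups overlapped. Markers of plasma cells did not follow it across the libraries. MZB1 stood at 0 and 0.0763 ppm in HS and at 0 and 9.26 ppm in drug-loaded MNs, and JCHAIN at 0.344 and 0.479 ppm in HS and at 0.920 and 10.1 ppm in drug-loaded MNs. Both were thus highest in drug-loaded MNs replicate 2, and TNFRSF17 was highest in HS replicate 2, where MZB1 was near 0.

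The 6 TNFAIP genes were split, 3 higher and 3 lower, with a median log2 fold change of 0.13 that was -0.001 under median ratio scaling. TNFAIP8L2 (TIPE2), a restraint on signalling in immune cells, was higher in drug-loaded MNs. It stood at 3.20 and 2.71 ppm in HS and at 6.46 and 7.30 ppm in drug-loaded MNs, with no overlap. The ratio of means was 2.33 and the log2 fold change 0.996 (± 0.28 SE, adjusted p 0.363 by limma). Its relative TNFAIP8 lay on the other side, at 174 and 169.9 ppm in HS and at 109 and 151 ppm in drug-loaded MNs, with a log2 fold change of -0.42 (± 0.24 SE, adjusted p 0.722 by limma) that was -0.19 without drug-loaded MNs replicate 1. TNFAIP3 (A20), the ubiquitin-editing brake on NF-kB, overlapped at 499 and 416 ppm in HS and at 338 and 487 ppm in drug-loaded MNs. TNFAIP6 (TSG-6), a hyaluronan-binding protein, stood at 33.2 and 30.0 ppm in HS and at 40.8 and 36.8 ppm in drug-loaded MNs, without overlap. TNFAIP8L3 overlapped at 10.0 and 15.7 ppm in HS and at 15.0 and 20.8 ppm in drug-loaded MNs. TNFAIP1 was the most even member, at 29.4 ppm in both HS libraries and at 28.5 and 29.2 ppm in drug-loaded MNs.

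Some genes that lie near each other on a chromosome had values in both directions, and others had values in 1 direction. By the order of genes in the rabbit RefSeq list (assembly mOryCun1.1), CCL19 is a near neighbour of CCL21 and of CCL27. The log2 fold changes of CCL21, CCL19 and CCL27 were 1.496, 0.35 and -0.18. CXCL9, CXCL10 and CXCL11 are neighbours as well, at 0.64, 0.08 and -0.80. In the third cluster, CCL17, CX3CL1 and CCL22 had log2 fold changes of 1.48, -0.34 and -0.27. CCL2 and CCL11, also neighbours, were both higher at 0.15 and 0.98, and so were CCL5 and CCL14 at 1.04 and 0.54. The differences within clusters were not tested. Chemokine clusters can hold similar copies, and how alike the genes named here are was not examined. How reads shared between copies were counted is not given in the sources used here, so the split between neighbours is uncertain.

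The rest of the pathway was taken from lists written from textbook knowledge. Among other TNF family ligands, all 3 tested were higher without overlap, where 26.6% of all genes were. Of these, 2 were at an unadjusted p under 0.05, where 7.26% of all genes were higher. CD40LG, the T cell ligand of CD40, stood at 0.434 and 0.409 ppm in HS and at 4.92 and 1.72 ppm in drug-loaded MNs, with a log2 fold change of 1.498 (± 0.41 SE, adjusted p 0.352 by limma). Its HS mean was 0.421 ppm, so it passed the filter through the drug-loaded MNs libraries. LTB (lymphotoxin beta), a ligand of lymphocytes that maintains lymphoid tissue, stood at 8.55 and 5.95 ppm in HS and at 16.6 and 15.5 ppm in drug-loaded MNs, with a log2 fold change of 1.07 (± 0.29 SE, adjusted p 0.344 by limma). EDA, the third, had a log2 fold change of 0.55. Of 5 tested other TNF receptors 2 were higher and 3 lower, where 64.6% of all genes were higher. Among them 1, CD27, was at an unadjusted p under 0.05 and higher, where 7.26% of all genes were. CD27 had an HS mean of 0.851 ppm and passed the filter in the same way as CD40LG. The receptor of LTB, LTBR, stood at 57.3 and 45.9 ppm in HS and at 52.8 and 47.4 ppm in drug-loaded MNs.

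Inside the cell, TRAF and death domain adaptors had 6 of 9 tested genes higher, near the 64.6% of all genes, a median log2 fold change of 0.17 and 0 at an unadjusted p under 0.05. The NF-kB list had 7 of 15 higher, a median of -0.03 and likewise 0 at an unadjusted p under 0.05. NFKBIA, the inhibitor that NF-kB itself induces, was the lowest of that list at 4262 and 5606 ppm in HS and 2137 and 3842 ppm in drug-loaded MNs, with a log2 fold change of -0.77 (± 0.34 SE, adjusted p 0.599 by limma). None of these genes passed in limma after adjustment over all genes. Dissociation response genes, which can be switched on while tissue is taken apart, lay on the same side as NFKBIA. All 5 tested were lower, where 64.6% of all genes were higher, and 1 was lower without overlap, against 11.2% of all genes. The median log2 fold change was -0.18. The summed level of the list was 13142 and 20232 ppm in HS and 12932 and 13713 ppm in drug-loaded MNs. Without HS replicate 2 the median was 0.03, and the part of dissociation in the level of NFKBIA was not tested. Among genes that couple chemokine receptors to movement, 9 of 12 were higher, 4 of them at an unadjusted p under 0.05, against 64.6% and 7.26% of all genes. These were DOCK2, ELMO1, GNG2 and PIK3CG, with log2 fold changes from 0.66 to 0.997, and DOCK2 and PIK3CG are known from leukocytes. Of a list of other genes tied to chemokines, 3 were tested, namely CMTM3, CMTM6 and PITPNM3. CMTM3 and CMTM6 are not themselves chemokines or chemokine receptors. CMTM6 and PITPNM3 were lower without overlap, where 11.2% of all genes were. For PITPNM3 the unadjusted p was 0.0417 by limma.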

How the data were processed

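Each of the 4 single-cell libraries (10x Genomics) is represented by 1 column of a gene table. The authors deposited a relative expression signal per gene and library, under a name that says FPKM. Every column sums to 10000, so it was treated as expression relative to the library total. The submitters' processing notes name Cell Ranger 2.1.1 and the build mm10, a mouse genome, although the table carries rabbit gene identifiers; how this fits together is not given in the sources used here. Low values lay within 0.1 of whole steps in 18.6 to 21.7% of cases, so reads could not be recovered and depth is unknown. How doublets were treated is not given in the sources used here, and none could be called from 1 value per gene and library. Counting intervals could not be given.

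Each column was brought to a sum of 1000000, and genes with a mean of at least 1 were kept (9348 of 13913). HS and drug-loaded MNs were compared on log2(value + 1), which understates the change of low genes, with limma 3.58.1 in R 4.3.3 (eBayes with trend, two-sided, Benjamini-Hochberg over all tested genes). The procedure was also run on data simulated with the variance it had itself fitted, so that run does not show how well it performs on these libraries. An exact permutation test of 2 against 2 libraries cannot go below 0.333 and was not used. The members and lists were chosen with earlier results of these data known. Values in all libraries were given for members at an unadjusted p under 0.05, members without overlap at an absolute log2 fold change of at least 1, and ligand and receptor pairs with both sides tested. The alternatives changed scaling, pseudocount, filter, variance prior, block and libraries. Gene neighbourhoods came from RefSeq (assembly mOryCun1.1), where 51 of 53 members matched. No sequences are shown. The values of 1 tested member and of 1 marker gene are not reported here, although both stay in the counts and medians.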

Additional observations from a re-analysis of the deposited data

How the results depend on the processing

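The log2 fold changes of the 42 tested members were recomputed under 13 alternatives, and 31 members had no change of sign in any of them that gave a value. The count of all genes past the adjusted threshold (4) was 0 without a filter, at a pseudocount of 5 and with either median ratio scaling or quantile normalization, 1 with eBayes without trend, and 0 to 75 with 1 library left out. The count of members past it (0) was 0 to 1 with 1 library left out. Members at an unadjusted p under 0.05 numbered 4 in place of 8 at a minimum mean of 5, where 30 members were tested and the other 12, among them TNFSF13B, CCR7, CX3CR1 and TNFAIP8L2, gave no value. The members' median was 0.23 with quantile normalization and 0.18 at that minimum.

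With the replicate number as a block, a paired fit with 1 residual degree of freedom, 241 genes and 3 members passed (CCL21, CCL17 and TNFSF13B, limma adjusted p 0.000122, 0.00714 and 0.0298). Same-numbered libraries had a correlation of deviations of 0.22 over only 2 pairs, and nothing in the labels ties them, so they share only a number. The cause of the higher count was not tested.

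Signs turned under median ratio scaling for ACKR4 (-0.0126), CCL20 (-0.0336), CXCL10 (-0.0433) and CXCL8 (-0.12), and under quantile normalization for ACKR4 (-0.0444), CXCL10 (-0.0865) and CXCL8 (-0.0436). With 1 library left out, the log2 fold change ran from -0.60 to 2.07 for CCL4, -0.24 to 0.026 for TNFRSF1A, -0.18 to 0.42 for ACKR4, -0.22 to 0.51 for CCL2, -1.03 to 1.23 for CCL20 and -0.71 to 0.35 for CCL27. It ran from -0.32 to 0.49 for CXCL10, -0.42 to 0.44 for CXCL8, -0.018 to 1.29 for CXCL9, -0.041 to 0.48 for CXCR4 and -0.43 to 0.10 for TNFAIP3. In fits that left a group with 1 library, that library was assumed to vary like the other group. With 2 libraries a group and unknown depth, small differences were not detectable.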
